A study of Mus musculus with 121 samples.

Results

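The comparison described here is between 8 h and 20 h after the first collection in fibroblasts kept in rich medium throughout, the treatment called HH. It holds 7 libraries, 3 from collection 3 (8 h, replicates 1, 3 and 4) and 4 from collection 6 (20 h, replicates 1 to 4), of 19 HH libraries and 62 libraries in the whole series. They were chosen by the treatment and collection fields of the sample titles, with the sequencing runs of each library summed. The cells of every group were mouse fibroblasts of genotype PER2::LUC sv, a knock-in line in which the clock protein PER2 is fused to firefly luciferase, at expansion passage P25. In HH, medium high in glucose and insulin was renewed every 12 h for 3 cycles of 24 h, whereas HL and LH alternated it with low medium in opposite orders, and RNA was then taken every 4 h without further medium change. The labels give clock hour 4 to the 8 h collection and clock hour 16 to the 20 h collection, and by the labels the groups share line, passage and treatment and differ in the time of harvest, with which the time in unrenewed medium also differs by 12 h. Cells of a single line in culture were used, and although the methods of the study call replicates biological in general, the labels do not say which libraries came from separate cultures. P-values therefore measure the spread between libraries, part of which may be technical, and in the main model this spread is taken from all 19 HH libraries. Total RNA was sequenced by 3′DGE, which reads the 3′ end of transcripts, and levels are given as CPM, counts scaled to a library of 1000000, after TMM scaling of the library totals.

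The circadian clock of mammalian cells is a transcriptional feedback loop. CLOCK and BMAL1 (encoded by Arntl) activate the Period and Cryptochrome genes through E-box sequences, and PER and CRY proteins then repress their own activators. A second loop is formed by the nuclear receptors REV-ERBα and REV-ERBβ (Nr1d1 and Nr1d2), which repress Arntl, Cry1 and Nfil3 through RORE sequences that ROR proteins also bind, while the PAR bZIP factors DBP, TEF and HLF and the repressor NFIL3 act on D-box sequences. In cultured fibroblasts these genes oscillate in each cell, and harvests 12 h apart place the opposite phases of one cycle beside each other.

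The 7 libraries held 4679998 to 7015044 counts on genes. Most defining genes of fibroblasts were abundant, and the 13 fibroblast markers (Col1a1, Col1a2, Pdgfra and others) summed to 32880 to 36630 CPM at 8 h and 21810 to 32680 CPM at 20 h, without TMM scaling. Col1a2 alone was at 8590 to 18000 CPM, whereas Lum was at 8.84 to 30.0 CPM and Fap at 0.496 CPM or below. Markers of other cell types were at or near 0: the epithelial list summed to 4.80 to 7.51 CPM at 8 h and 6.78 to 16.0 CPM at 20 h with Krt5 and Krt18 at 0 in all 7 libraries, the leukocyte list to 13.7 to 18.2 and 17.4 to 27.6 CPM with Adgre1 and Cd3e at 0, the muscle list to 2.29 to 3.43 and 1.26 to 7.44 CPM with Myod1, Myog, Myh3 and Des at 0, and the adipocyte list to 4.63 to 6.95 and 8.43 to 14.96 CPM with Adipoq and Plin1 at 0. Of the endothelial list, Kdr alone reached 145 to 270 CPM, while Cdh5 and Pecam1 stayed at 0.157 CPM or below. Of the chondrocyte list, Sox9 carried nearly the whole sum (553 to 671 CPM at 8 h, 294 to 513 CPM at 20 h), and Col2a1, Col9a1 and Matn1 were at 0.

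The 20 h libraries stood apart from the rest of HH in their spread. Over 7829 genes with a mean of at least 10 CPM, the median SD of log2 CPM between libraries of one collection was 0.406 at 20 h, against 0.162 at 8 h and 0.142 to 0.219 in the 5 collections other than 20 h. The SD was larger at 20 h than at 8 h for 88.1% of these genes. Replicate 3 of 20 h lay farthest out, with 17.6% of genes over 2-fold from the mean of the other 20 h libraries. For replicates 1, 2 and 4 this share was 1.78%, 6.68% and 7.64%, for the 8 h libraries 0.243% to 1.1%, and for the libraries of the other 4 collections 0.0894% to 4.05%. Ribosomal protein genes took 7.16% of the counts of 20 h replicate 3 and 4.10% to 5.21% of those of the other 6 libraries. Malat1, a nuclear long non-coding RNA, was at 9452 to 13830 CPM at 20 h and 6169 to 8202 CPM at 8 h, but also at 10530 and 10780 CPM in the 12 h libraries. The main model takes the spread of each gene from all 19 HH libraries, and this can understate the spread at 20 h. Its p-values can then be too small for this comparison. The part of these differences in the results below was not tested, and results are given without single libraries where that moves them.

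**Figure D1:**
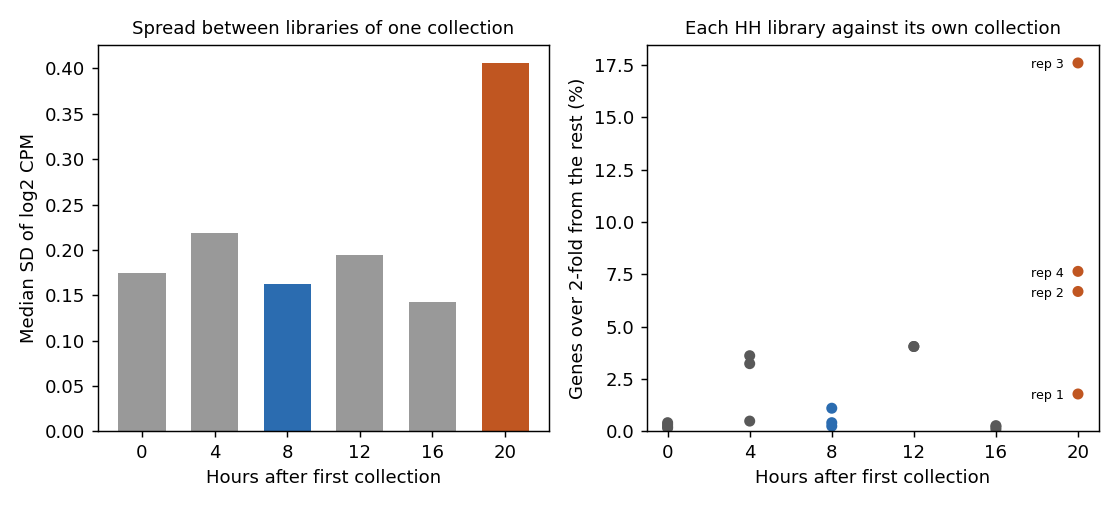
Left, the median over 7829 genes of the SD of log2 CPM between the libraries of each HH collection (bars, by hours after the first collection). Right, for each HH library (points) the percentage of these genes more than 2-fold from the mean of the other libraries of its collection. The 20 h collection has a median SD of 0.406, and its replicate 3 has 17.6% of genes over 2-fold away.

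Of 11507 genes with at least 1 CPM in 3 of the 7 libraries, 9 differed between 8 h and 20 h (0.0782%, edgeR's quasi-likelihood test in a model of all 19 HH libraries, Benjamini-Hochberg adjusted p under 0.05). Of these, 6 were lower at 20 h (Nr1d1, Dbp, Bhlhe41, Nusap1, Top2a and Bub1b, 0.0521%) and 3 were higher (Cry1, Pim1 and Stc2, 0.0261%). They fall into clock genes, genes of mitosis and a pair of genes outside both groups. At an unadjusted p under 0.05, 528 genes were lower (4.59%) and 785 higher at 20 h (6.82%), and the median log2 fold change of all genes was 0.03. With the 7 libraries alone in the model, so that the spread was taken from these groups only, 1 gene (Nr1d1, 0.00869%) was called and 563 passed an unadjusted 0.05 (4.89%). Without 8 h replicate 1, or without 8 h replicate 3, Nr1d1 was also the single gene called, whereas without 20 h replicate 1, 2, 3 or 4 the counts were 39, 12, 10 and 78. Without TMM scaling, which moved the median of all genes by -0.117 on the log2 scale, 24 genes were called, of which 8.33% were higher at 20 h, against 33.3% of the 9.

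**Figure D2:**
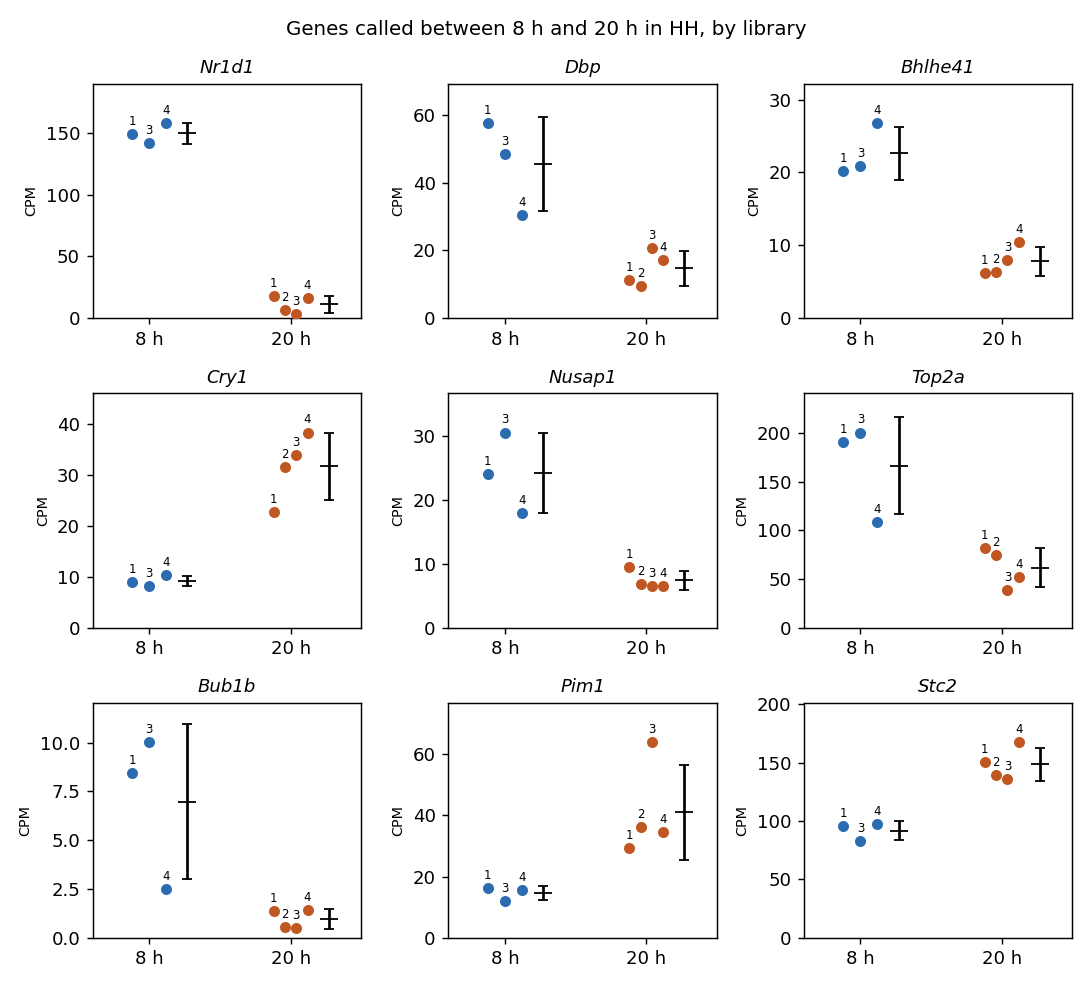
CPM of the 9 called genes in each HH library at 8 h (blue) and 20 h (orange). Numbers beside the points are replicate numbers, and the bars beside them give the mean and SD (n = 3 and n = 4). The groups do not overlap for any of the 9 genes, and the widest gap is that of Nr1d1, at 142 to 158 CPM against 3.54 to 17.6 CPM.

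Nr1d1, which encodes the repressor REV-ERBα (ENSMUSG00000020889, chr11:98767932-98775333 of GRCm38, minus strand), showed the largest change of all genes tested. In the 8 h libraries it was at 149, 142 and 158 CPM, and in the 20 h libraries at 17.6, 6.35, 3.54 and 16.5 CPM. All 8 h libraries were high and all 20 h libraries low, with the lowest values in 20 h replicates 2 and 3. The means were 149.8 ± 8.30 CPM (SD, n = 3) and 11 ± 7.10 CPM (SD, n = 4), and the fitted level fell 13.2-fold (log2 fold change -3.72, standard error 0.31, adjusted p = 2.13e-07). It was called under each of 23 other settings, with log2 fold changes of -4.03 to -3.45 and adjusted p up to 0.0126. Its 3′ end overlaps that of Thra (chr11:98740638-98769006, plus strand), the gene of thyroid hormone receptor α, so reads of both can be mixed if counting ignored strand. Thra was at 426, 423 and 513 CPM at 8 h and 385, 372, 269.1 and 490 CPM at 20 h, groups that overlap (log2 fold change -0.26, adjusted p = 0.580).

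Dbp, a PAR bZIP activator of D-box genes and a classical target of CLOCK and BMAL1 (chr7:45705088-45710203, plus strand), was at 57.7, 48.4 and 30.3 CPM at 8 h and 11.1, 9.52, 20.7 and 17.2 CPM at 20 h. It fell 3.12-fold (log2 fold change -1.64, standard error 0.29, adjusted p = 0.0140). Bhlhe41, the repressor DEC2 (chr6:145858243-145865558, minus strand), was at 20.2, 20.8 and 26.8 CPM at 8 h and 6.23, 6.35, 8.01 and 10.5 CPM at 20 h. It fell 2.90-fold (log2 fold change -1.54, standard error 0.28, adjusted p = 0.0204). For both genes every 8 h library lay above every 20 h library, and with the 7 libraries alone in the model neither was called (adjusted p = 0.505 for each). Bhlhe41 was also not called without 8 h replicate 4 or without 20 h replicate 2. Dbp overlaps Sphk2 on the other strand, so its count is uncertain if counting ignored strand.

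Cry1, the cryptochrome that represses CLOCK and BMAL1 late in the cycle (chr10:85131700-85185064, minus strand), moved the other way. It was at 9.04, 8.29 and 10.3 CPM at 8 h and 22.8, 31.6, 33.9 and 38.3 CPM at 20 h, and every 20 h library was more than 2-fold above every 8 h library. The means were 9.22 ± 1.03 CPM (SD, n = 3) and 31.7 ± 6.54 CPM (SD, n = 4), and the fitted level rose 3.43-fold (log2 fold change 1.78, standard error 0.26, adjusted p = 0.00402). It was called in 18 of the 23 settings, with log2 fold changes of 1.54 to 1.97, and not with the 7 libraries alone (adjusted p = 0.143).

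All 10 clock repressors passed the filter, and beside Nr1d1, Bhlhe41 and Cry1 none was called. Nr1d2, which encodes REV-ERBβ, lay just outside the threshold, at 74.0, 87.5 and 81.0 CPM at 8 h and 28.1, 32.8, 49.96 and 44.3 CPM at 20 h (log2 fold change -1.06, standard error 0.21, adjusted p = 0.0528). Its groups did not overlap, and it was called without 20 h replicate 3. Bhlhe40 (DEC1) was at 9.95 to 15.3 CPM at 8 h and 3.06 to 9.18 CPM at 20 h (adjusted p = 0.247). Per1 averaged 7.02 ± 2.08 CPM at 8 h and 12.1 ± 3.33 CPM at 20 h (adjusted p = 0.390), and Per3 10.9 ± 5.73 and 6.22 ± 0.204 CPM (adjusted p = 0.450). Per2, whose protein carries the luciferase in this line, was low in both groups, at 0.833 to 4.29 CPM at 8 h and 0.176 to 7.46 CPM at 20 h. Cry2 was at 12.8 to 13.3 CPM at 8 h and 12.6 to 25.6 CPM at 20 h, and Ciart, a further repressor of the complex, at 2.50 CPM or below in each library. The 8 h libraries lay above the 20 h libraries for 4 of the 10 repressors, against 3.95% of all genes tested, and below them for 1 (3.57%).

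Of the activators and RORs, 5 of 7 passed the filter and none was called. Arntl, which encodes BMAL1, was at 3.37, 1.72 and 2.17 CPM at 8 h and 8.05, 2.82, 4.01 and 7.75 CPM at 20 h, values that overlap (log2 fold change 1.23, standard error 0.46, adjusted p = 0.324). Clock averaged 76.1 ± 8.45 and 66.7 ± 6.80 CPM (adjusted p = 0.694). Rora was at 133 to 189 CPM at 8 h and at 169, 143, 139 and 390 CPM at 20 h, so that its higher mean at 20 h came from replicate 4. Arntl2 (log2 fold change 0.72) and Rorb (-1.08) were at or below 8.83 CPM and were not called either. In the PAR bZIP group, Tef was at 140 to 178 CPM at 8 h and 103 to 121 CPM at 20 h with no overlap (log2 fold change -0.51, standard error 0.16, adjusted p = 0.244). Nfil3, the repressor that opposes DBP at D-boxes, was at 4.90, 4.54 and 1.83 CPM at 8 h and 12.2, 11.8, 9.66 and 9.76 CPM at 20 h, also without overlap (log2 fold change 1.52, standard error 0.38, adjusted p = 0.152). Hlf reached 135 CPM in 20 h replicate 4 and was at 32.2 to 60.3 CPM in the other 6 libraries. Of 25 measured kinases, phosphatases and ubiquitin ligases that act on clock proteins none was called, and 4 were higher (16.0%, background 6.82%) and 0 lower (background 4.59%) at an unadjusted p under 0.05.

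The 4 other HH collections show where 8 h and 20 h lie in the course of these genes. Nr1d1 averaged 12.7, 44.5, 149.8, 99.96, 29.6 and 11 CPM at 0, 4, 8, 12, 16 and 20 h, so 8 h was its highest collection, and 0 h and 20 h, whose ranges overlap, were its lowest. Dbp (5.06, 4.71, 45.5, 58.0, 35.4 and 14.6 CPM), Nr1d2 (17.4, 28.9, 80.8, 107.7, 62.7 and 38.8 CPM) and Tef (59.8, 66.1, 157, 225.1, 181 and 111 CPM) were highest at 12 h, and their 20 h level stayed above that of 0 h. Cry1 averaged 21.1, 8.46, 9.22, 22.4, 25.5 and 31.7 CPM, lowest at 4 h and 8 h and highest at 20 h. Nfil3 was lowest at 8 h (3.76 CPM) and Arntl at 16 h (1.201 CPM). In the test over all 6 collections 52 genes were called (0.452%) and 1110 passed an unadjusted 0.05 (9.65%). The called genes had among them Nr1d1 (adjusted p = 1.06e-07), Dbp (2.70e-07), Tef (3.76e-07), Nr1d2 (1.14e-06), Stc2 (0.000219), Bhlhe41 (0.000262), Cry1 (0.000630), Per3 (0.00639) and Arntl (0.0165), but not Nfil3 (0.0654) or Per2 (0.0915).

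**Figure D3:**
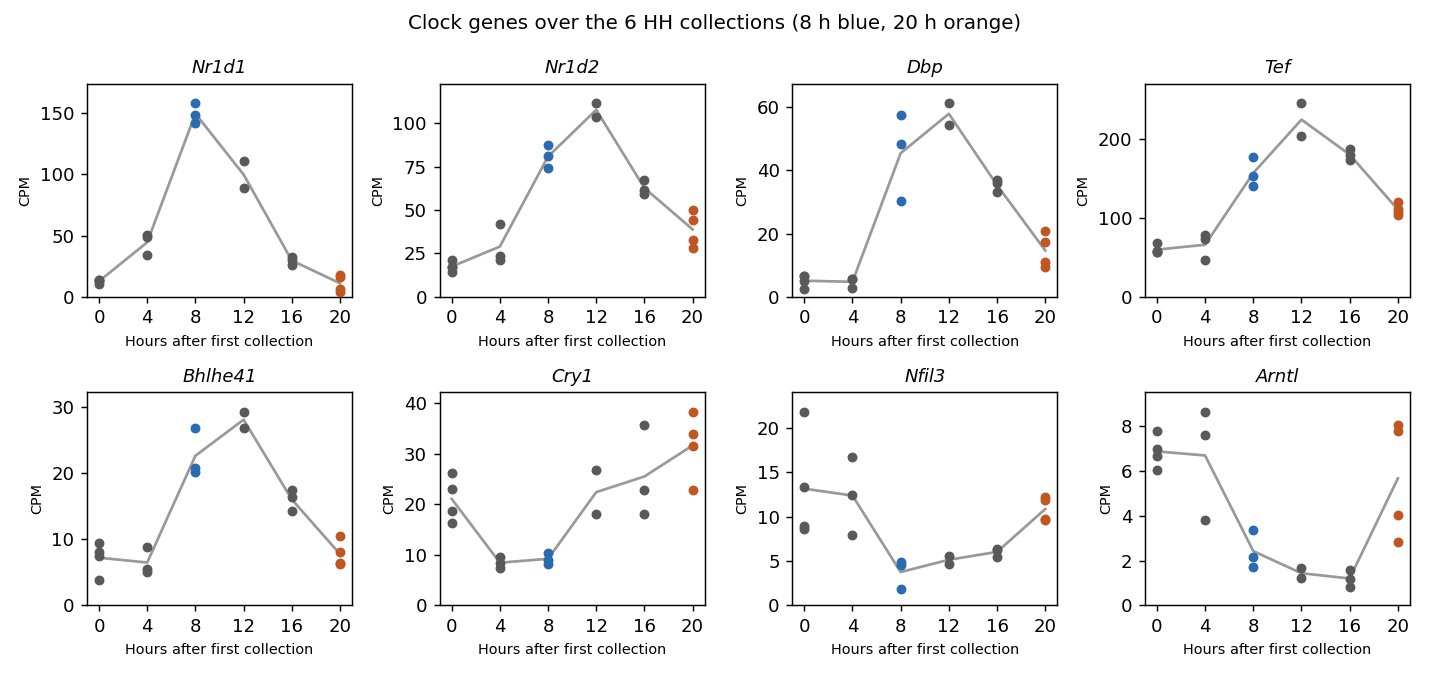
CPM of 8 clock genes in the 19 HH libraries (points) by hours after the first collection, with the mean of each collection joined by a grey line. Nr1d1 is highest at 8 h (mean 149.8 CPM) and low at 0 h and 20 h (12.7 and 11 CPM), Dbp, Nr1d2, Tef and Bhlhe41 are highest at 12 h, and Cry1 rises from a mean of 9.22 CPM at 8 h to 31.7 CPM at 20 h. Nfil3 (means 3.76 and 10.8 CPM) and Arntl (2.42 and 5.66 CPM) were not called between these times.

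In the other pairs of collections 12 h apart, 4 genes differed between 4 h and 16 h (0.0348%) and 11 between 0 h and 12 h (0.0956%), and the difference between pairs was tested in the same model. The change from 8 h to 20 h differed from that between 4 h and 16 h for 6 genes (0.0521%) and from that between 0 h and 12 h for 7 genes (0.0608%). The labels give clock hour 12 to both the 4 h and the 16 h collection, so their times rest on the collection number. Nr1d1 changed by -3.72 from 8 h to 20 h, by -0.60 from 4 h to 16 h and by 2.98 from 0 h to 12 h on the log2 scale, and both differences passed (adjusted p = 0.000978 and 2.37e-09). Dbp changed by -1.64, 2.88 and 3.52 (adjusted p of the differences 7.15e-06 and 1.71e-07), and Nr1d2, Tef and Bhlhe41 also differed from both other pairs. The change of Arntl (1.23) exceeded that of the 4 h and 16 h pair (-2.53) by 3.76 (SE 0.69, adjusted p = 0.0285) and that of the 0 h and 12 h pair by 3.46 (SE 0.73, adjusted p = 0.0736). For Per3 the differences from these pairs were -2.95 (SE 0.61, adjusted p = 0.0911) and -3.28 (SE 0.60, adjusted p = 0.0242), and for Timp1 0.49 (SE 0.28, adjusted p = 0.855) and 1.69 (SE 0.29, adjusted p = 0.0137). Whether the 2 differences of a gene differ from each other was not tested. For Cry1 the change from 4 h to 16 h was 1.57, and its difference from the change between 8 h and 20 h was 0.21 with a standard error of 0.38 (adjusted p = 0.973). The difference of Cry1 from the 0 h and 12 h pair was 1.69 with a standard error of 0.39 (adjusted p = 0.122).

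Genes whose course over the 19 HH libraries was most like that of Nr1d1, by Pearson's r of log2 CPM among genes of at least 10 CPM, were Usp9x (0.842), Eya4 (0.826), Vezf1 (0.824), Pde8a (0.815) and Nedd4 (0.811). For Cry1 they were Ephx1 (0.763), Tsc22d3 (0.761), Tm9sf3 (0.755), Eef1a1 (0.725) and Pnp (0.709). The libraries share collections and the spread at 20 h, and these values describe the data without a test. Pde8a, a phosphodiesterase that hydrolyses cAMP, was at 39.7, 42.4 and 34.7 CPM at 8 h and 25.5, 11.8, 16.3 and 17.1 CPM at 20 h (log2 fold change -1.13, standard error 0.23, adjusted p = 0.0545).

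Promoter windows of 3 called clock genes and of Nfil3, which was not called, are shown to place the sequence elements of the loop (RefSeq, GRCm38.p6, 250 bases before to 50 after the start, 5′ to 3′ on the strand of the gene). The windows of Nr1d1 (chr11:98775328-98775627, minus), Cry1 (chr10:85185005-85185304, minus), Bhlhe41 (chr6:145865371-145865670, minus) and Nfil3 (chr13:52980990-52981289, minus) were searched on both strands for the E-box CACGTG, the D-box TTATGNAA and the RORE TNGGTCA, and capitals mark the matches to these 3 motifs.
Nr1d1: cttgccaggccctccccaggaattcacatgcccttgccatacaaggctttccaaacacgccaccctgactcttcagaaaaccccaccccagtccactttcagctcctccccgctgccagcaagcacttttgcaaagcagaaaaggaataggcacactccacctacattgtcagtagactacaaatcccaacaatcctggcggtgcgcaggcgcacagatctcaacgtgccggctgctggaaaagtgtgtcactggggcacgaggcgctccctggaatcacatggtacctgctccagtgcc
Cry1: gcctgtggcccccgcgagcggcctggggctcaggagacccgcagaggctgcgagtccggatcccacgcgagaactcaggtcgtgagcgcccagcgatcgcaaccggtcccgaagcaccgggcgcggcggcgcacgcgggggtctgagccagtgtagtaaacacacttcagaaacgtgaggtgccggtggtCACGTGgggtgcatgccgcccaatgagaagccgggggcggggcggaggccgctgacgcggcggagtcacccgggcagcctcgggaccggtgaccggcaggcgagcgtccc
Bhlhe41: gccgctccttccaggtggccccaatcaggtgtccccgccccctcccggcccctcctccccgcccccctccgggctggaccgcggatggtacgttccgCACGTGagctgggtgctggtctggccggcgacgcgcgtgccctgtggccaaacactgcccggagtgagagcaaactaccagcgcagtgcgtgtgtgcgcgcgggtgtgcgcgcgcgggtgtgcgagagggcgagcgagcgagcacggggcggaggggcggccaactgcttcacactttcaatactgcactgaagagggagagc
Nfil3: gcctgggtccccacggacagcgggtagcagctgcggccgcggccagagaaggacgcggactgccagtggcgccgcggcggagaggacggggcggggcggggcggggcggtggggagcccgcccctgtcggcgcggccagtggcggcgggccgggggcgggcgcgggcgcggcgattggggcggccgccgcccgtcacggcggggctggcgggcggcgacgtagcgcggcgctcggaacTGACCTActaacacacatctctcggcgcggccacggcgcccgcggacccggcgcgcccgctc
Cry1 and Bhlhe41 each held 1 E-box, which starts 60 and 153 bases before the start, and Nfil3 held 1 RORE on the opposite strand, 12 bases before it. No E-box, D-box or RORE match occurred in the windows of Nr1d1, Nr1d2 or Dbp. Over all 32851 promoter windows, 7.15% held the E-box, 3.38% the D-box and 11% the RORE, and over the 11561 windows of genes tested 10%, 1.97% and 9.53%. In the windows shown, the E-box matches lie in genes that moved in opposite directions, Bhlhe41 lower and Cry1 higher at 20 h. Among the other named genes, windows of Pim1, Tef, Per1, Ciart and Lig1 also held an E-box. Windows of Arntl, Top2a, Per3, Cry2, Tef and Lig1 held a RORE.

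Mitotic genes formed the second group among the calls, and all 3 of them were lower at 20 h. Nusap1, which bundles spindle microtubules (chr2:119618298-119651244, plus strand), was at 24.0, 30.5 and 18.0 CPM at 8 h and 9.57, 6.88, 6.60 and 6.60 CPM at 20 h, and it fell 3.25-fold (log2 fold change -1.70, standard error 0.27, adjusted p = 0.00804). Top2a, the DNA topoisomerase that separates sister chromatids (chr11:98992943-99024189, minus strand), was at 190.5, 201 and 109 CPM at 8 h and 81.9, 74.8, 38.4 and 52.2 CPM at 20 h, a 2.69-fold fall (log2 fold change -1.43, standard error 0.25, adjusted p = 0.0140). Bub1b, a kinase-like protein of the spindle checkpoint (chr2:118598211-118641591, plus strand), was at 8.42, 10.0 and 2.50 CPM at 8 h and 1.37, 0.529, 0.471 and 1.43 CPM at 20 h (log2 fold change -2.80, standard error 0.53, adjusted p = 0.0312). Bub1b was called in 12 of the 23 settings, and it was not called without 8 h replicate 1 or 3, without 20 h replicate 2 or 3, in either sequencing run alone, at equal depth, in limma-voom or with the 7 libraries alone (adjusted p up to 0.920), and with a minimum of 5 CPM in 3 libraries it was not tested. In each of the 3 genes the groups did not overlap, and 8 h replicate 4 was the lowest of its group. Nusap1 overlaps Oip5 on the other strand, with the same limit as for Dbp.

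Of 87 genes of mitosis and chromosome segregation 83 passed the filter, and their median log2 fold change was -0.95 against 0.03 for all genes. At an unadjusted p under 0.05, 47 were lower and 0 higher at 20 h, which is 56.6% against a background of 4.59% lower. The 8 h libraries lay above all 20 h libraries for 33 of the 83 (39.8%, background 3.95%), and the 20 h libraries lay above for 0. Ckap2 (adjusted p = 0.0529) and Nuf2 (0.0545), of the spindle and the kinetochore, were just outside the threshold. Others with no overlap were Cenpe, a kinetochore motor, at 20.5 to 26.6 CPM at 8 h and 8.20 to 11.8 CPM at 20 h, Ncapd2, a condensin subunit, at 49.2 to 65.6 and 31.6 to 35.8 CPM, Plk1, a mitotic kinase, at 12.7 to 18.3 and 5.596 to 10.4 CPM, Foxm1, a transcription factor of mitotic genes, at 6.33 to 9.95 and 2.01 to 3.65 CPM, and Mki67, the proliferation marker Ki-67, at 19.5 to 32.3 and 3.54 to 19.1 CPM. Smc2 (38.0 to 54.5 and 17.7 to 38.3 CPM) overlapped. With the 7 libraries alone in the model, 41 members were lower at an unadjusted 0.05 (background 1.74%). Without each single library this number was 36 to 52, and it was 47 without 20 h replicate 3, where the background was 4.10%. In bulk RNA fewer cycling cells and less mitotic RNA per cell cannot be told apart.

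Summed over the 83 genes, the mitotic level was 1699 ± 265 CPM at 8 h (SD, n = 3) and 1131 ± 131 CPM at 20 h (SD, n = 4). The other collections gave 1629 at 0 h, 1556 at 4 h, 1306 at 12 h and 1181 at 16 h, so that the first 3 collections were higher than the last 3. The median log2 fold change of the list was -0.56 from 4 h to 16 h (17 lower, 0 higher at an unadjusted 0.05, or 20.5% lower against 1.76% of all genes) and -0.49 from 0 h to 12 h (14 lower, 0 higher, or 16.9% lower against 3.68%), and no member was called in either pair. Genes of DNA replication and S phase were described in the same way, with no test of a difference between the lists. Of 57 measured, 11 were lower (19.3%, background 4.59%) and 0 higher at an unadjusted 0.05, none was called, and the median was -0.31, with 41 fitted changes below 0 and 16 above. In the other pairs the median was -0.33 from 4 h to 16 h (8.77% lower, background 1.76%) and -0.76 from 0 h to 12 h (26.3% lower, background 3.68%). Among the 11 genes were the helicase subunits Mcm3, at 27.6 to 29.9 CPM at 8 h and 17.2 to 21.4 CPM at 20 h, and Mcm7, the ribonucleotide reductase subunit Rrm1, at 38.0 to 59.7 and 26.6 to 34.2 CPM, and the DNA ligase Lig1, at 89.5 to 108 and 47.8 to 84.0 CPM. With the 7 libraries alone 6 members were lower (background 1.74%), without 8 h replicate 1 there were 7 (3.01%) and without 8 h replicate 3 there were 6 (3.32%). Their sum went from 1292 CPM at 0 h over 1068 CPM at 8 h to 861 CPM at 20 h, as a description without a test.

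**Figure D4:**
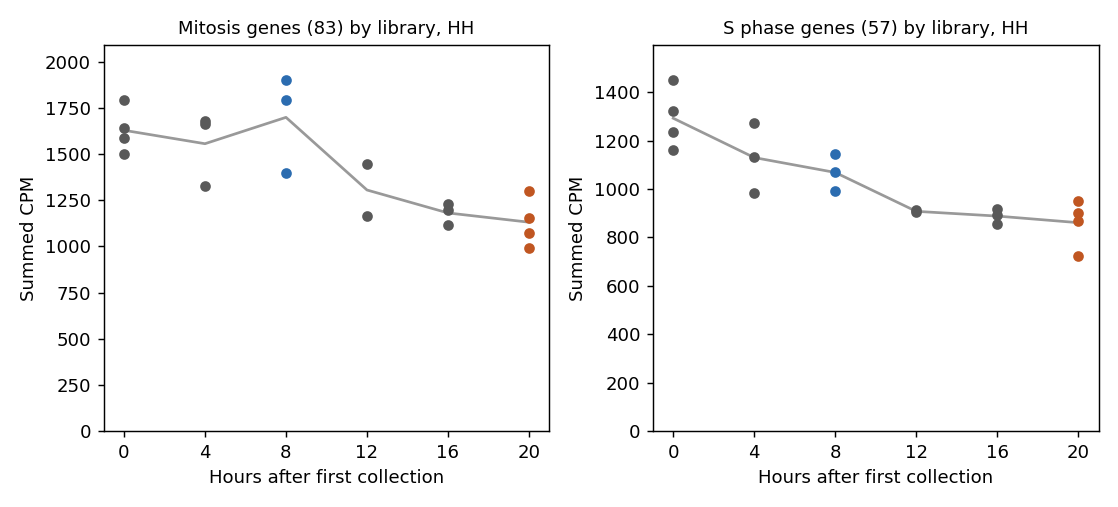
Summed CPM of the 83 mitotic genes (left) and the 57 S phase genes (right) in each HH library (points) by hours after the first collection, with the mean of each collection joined by a line. Mitotic sums lie at 1399 to 1902 CPM at 8 h and 994 to 1301 CPM at 20 h.

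The promoters of 2 called mitotic genes are shown because windows of this list share elements. The cell cycle homology region (CHR, TTTGAA) and the CCAAT box (CCAAT) are known elements of genes expressed late in the cell cycle. Both were searched on either strand, and capitals in the windows of Top2a (chr11:99024140-99024439, minus) and Bub1b (chr2:118597961-118598260, plus) mark the matches to these motifs only.
Top2a: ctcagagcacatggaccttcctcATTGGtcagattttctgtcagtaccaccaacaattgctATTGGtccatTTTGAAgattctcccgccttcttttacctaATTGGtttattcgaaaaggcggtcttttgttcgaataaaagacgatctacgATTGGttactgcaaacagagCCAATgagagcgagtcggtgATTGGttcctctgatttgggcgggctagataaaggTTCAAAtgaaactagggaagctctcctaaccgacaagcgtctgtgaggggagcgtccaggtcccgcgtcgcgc
Bub1b: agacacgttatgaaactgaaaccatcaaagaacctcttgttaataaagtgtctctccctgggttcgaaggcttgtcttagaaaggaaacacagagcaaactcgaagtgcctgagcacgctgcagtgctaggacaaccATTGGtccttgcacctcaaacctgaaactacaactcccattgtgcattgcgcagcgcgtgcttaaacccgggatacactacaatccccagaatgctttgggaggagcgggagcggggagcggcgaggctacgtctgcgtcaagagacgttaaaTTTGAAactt
Top2a held 2 CHR and 6 CCAAT matches and Bub1b 1 of each, whereas Nusap1 held neither. Of 76 windows of 69 measured mitotic genes, 51 (67.1%) held the CHR and 55 (72.4%) the CCAAT box, against 17.9% and 37.4% of all 32851 windows and 11.8% and 38.1% of the 11561 windows of genes tested. In 56 windows of S phase genes the shares were 12.5% and 57.1%. A match is a string of letters and does not show that a factor binds there.

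Pim1 and Stc2 were the genes that rose at 20 h outside the clock. Pim1, a serine/threonine kinase induced by cytokines (chr17:29490753-29496112, plus strand), was at 16.4, 12.1 and 15.7 CPM at 8 h and 29.5, 36.2, 63.9 and 34.4 CPM at 20 h, highest in 20 h replicate 3 (2.77-fold, log2 fold change 1.47, standard error 0.25, adjusted p = 0.0140). It was called in 16 of the 23 settings, also without that library. With the 7 libraries alone it was not called (adjusted p = 0.565), also not with a replicate block. Nor was it called in the model of all 62 libraries, in the second sequencing run alone, at equal depth, or without 8 h replicate 1 or 3. Stc2, the secreted glycoprotein stanniocalcin 2, which inhibits the cleavage of IGF-binding proteins (chr11:31357307-31370074, minus strand), was at 95.6, 82.6 and 97.0 CPM at 8 h and 151, 139.5, 136 and 167 CPM at 20 h (1.62-fold, log2 fold change 0.70, standard error 0.13, adjusted p = 0.0394). It was called in 12 of the 23 settings, and not when any single 8 h library was left out, and its mean over the 6 collections was lowest at 0 h (66.6 CPM) and highest at 20 h (148.5 CPM). Of 38 measured genes of insulin and IGF signalling Stc2 was the single call, with 4 higher (10.5%, background 6.82%) and 2 lower (5.26%, background 4.59%) at an unadjusted 0.05 and a median of 0.12.

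Collagen chains were lower at 20 h at an unadjusted 0.05 in 7 of 18 measured genes (38.9%, background 4.59%) and higher in 0, with a median of -0.31 and no call. Col1a1, the main fibrillar chain, was at 7367, 6972 and 6293 CPM at 8 h and 6386, 6460, 3064 and 4129 CPM at 20 h, and Col6a2 at 978 to 1127 and 346 to 959 CPM. The lowest value at 20 h was that of replicate 3 for Col1a1, Col4a1, Col4a2, Col6a1 and Col6a2, and without that library 3 members were lower (background 4.10%) and the median was -0.13. There were 3 without 8 h replicate 1 (background 3.01%), 4 without 8 h replicate 3 (3.32%), 4 without 20 h replicate 4 (7.70%) and 1 with the 7 libraries alone (1.74%). Lox, the lysyl oxidase that cross-links collagen, was at 1234, 1269 and 1307 CPM at 8 h and 1102, 820, 688 and 866 CPM at 20 h with no overlap (log2 fold change -0.55, standard error 0.14, adjusted p = 0.166). Of 51 matrix glycoproteins and proteoglycans 4 were higher (7.84%) and 3 lower (5.88%) at an unadjusted 0.05, near the 6.82% and 4.59% of all genes. Spon2 averaged 25.7 ± 1.88 CPM at 8 h and 13.3 ± 5.97 CPM at 20 h (adjusted p = 0.222), and Fbln2 755 ± 41.4 and 507 ± 210 CPM (adjusted p = 0.346, SD, n = 3 and n = 4). Aspn, a small leucine-rich proteoglycan, was at 475 to 567 CPM at 8 h and 616 to 715 CPM at 20 h (adjusted p = 0.325). The groups of these 3 genes did not overlap, and none was called.

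No member of the interferon, NF-kB and ER chaperone lists was called in the model without a replicate block. Of 28 interferon and MHC class I genes 9 were higher and 0 lower at an unadjusted 0.05 (32.1%, background 6.82%), with a median of 0.46. Their sum was highest in 20 h replicate 4, at 11910 CPM against 4800 to 7468 CPM in the other 20 h libraries and 6101 to 7780 CPM at 8 h, without TMM scaling. Isg15, an interferon-induced ubiquitin-like protein, was at 17.5, 16.4 and 43.7 CPM at 8 h and 61.5, 20.3, 70.7 and 149 CPM at 20 h, groups that overlap. Without 20 h replicate 4 the number of members was 5 (background 10.2%) and the median 0.24. It was 4 without 8 h replicate 1 (background 4.35%), 14 without 8 h replicate 4 (4.92%) and 15 without 20 h replicate 2 (6.71%). Of 22 NF-kB regulators and chemokines 5 were higher (22.7%, background 6.82%) and 0 lower, with a median of 0.62. Nfkbia, the inhibitor of NF-kB, was at 233.2 to 288.7 CPM at 8 h and 290 to 561 CPM at 20 h without overlap (adjusted p = 0.211). The number was 3 without 20 h replicate 3 (background 5.22%) or with the 7 libraries alone (3.15%), and 2 without 8 h replicate 1 (4.35%) or without TMM scaling (3.22%). Of 26 ER chaperone and unfolded protein response genes 6 were higher (23.1%, background 6.82%) and 0 lower, with a median of 0.27. Under the same settings as for the other lists and against the same backgrounds the number was 0 without 8 h replicate 4, 1 without TMM scaling, 2 without 8 h replicate 1 or with the 7 libraries alone, 3 without 20 h replicate 3 and 10 without 20 h replicate 4.

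**Figure D5:**
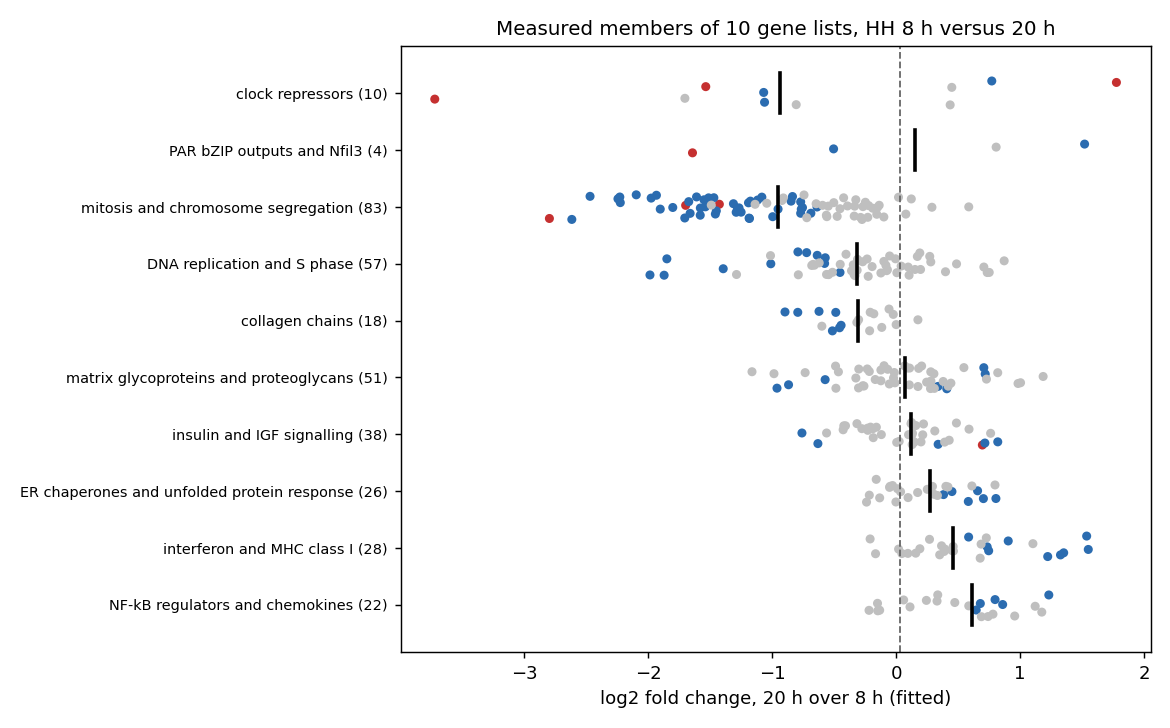
Fitted log2 fold change (20 h over 8 h) of the measured members of 10 gene lists, with the number measured in brackets. Red points are called at an adjusted p under 0.05, blue points pass an unadjusted 0.05, grey points neither, black bars are list medians and the dashed line is the median of all 11507 genes (0.03). The mitotic list has a median of -0.95, with 47 members lower and 0 higher at an unadjusted 0.05.

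In the remaining metabolic, stress and signalling lists (clock-driven outputs, collagen processing, metalloproteinases, glucose sensing and glycolysis, sterol and fatty acid synthesis, immediate early, SRF, heat shock, ATF4, hypoxia, NRF2, glucocorticoid and TGF-beta genes) no member was called, and at an unadjusted 0.05 each list had 0 to 4 members higher and 0 to 2 lower, of 16 to 36 measured, against 6.82% and 4.59% of all genes. The highest shares were those of glucocorticoid-responsive genes, with 4 of 16 higher (25%, median 0.32), and of NRF2 antioxidant genes, with 4 of 19 higher (21.1%, median -0.07), and 1 member of each list was lower. The glucocorticoid count was 2 without 8 h replicate 1 (background 4.35%), without 20 h replicate 3 (5.22%) or without TMM scaling (3.22%). The NRF2 count was 0 with the 7 libraries alone (background 3.15%) and 1 in each of these settings and without 8 h replicate 4 (4.92%). Txnip, a glucose-induced inhibitor of glucose uptake, was at 35.3 to 51.3 CPM at 8 h and at 51.0, 138, 150 and 42.2 CPM at 20 h, so that 20 h replicates 2 and 3 differed from replicates 1 and 4. Angptl4, a secreted inhibitor of lipoprotein lipase, was at 9.83 to 15.9 CPM at 8 h and 24.1 to 31.7 CPM at 20 h without overlap (log2 fold change 1.11, adjusted p = 0.0788). Adm, the vasodilator peptide adrenomedullin, was at 15.5 to 23.0 and 29.3 to 54.9 CPM, also without overlap (log2 fold change 0.999, adjusted p = 0.0814). Actg1, cytoplasmic γ-actin, was at 98.5, 65.3 and 52.2 CPM at 8 h and 40.4, 12.5, 23.8 and 37.0 CPM at 20 h (log2 fold change -1.33, adjusted p = 0.0744).

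Of the genes that the study names, 24 of 25 passed the filter. They were chosen in part on these samples, so their direction is not independent evidence. Of these, 5 were called (0.0782% of all genes). At an unadjusted 0.05, 17 were lower (70.8%, background 4.59%) and 2 higher (8.33%, background 6.82%), and the median was -0.61 against 0.03 for all genes. Those not yet described include Aspm (13.9 ± 4.85 CPM at 8 h, 4.27 ± 1.67 at 20 h, adjusted p = 0.0892) and Kif2c (4.98 ± 3.06 and 1.01 ± 0.664, adjusted p = 0.166), both of the spindle and lower with no overlap but not called. Mgp, the matrix Gla protein, averaged 148 ± 6.33 and 201 ± 83.6 CPM (adjusted p = 0.515), Wee1, a kinase that delays mitosis, 14.1 ± 2.96 and 16.8 ± 3.24 CPM (adjusted p = 0.727), and Ptcd2 13.5 ± 2.33 and 15.2 ± 4.01 CPM (adjusted p = 0.822), all with SD, n = 3 and n = 4.

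The change from 8 h to 20 h was also set against that between the same collections of the other treatments, taken by sample titles. In HL, as in HH, these collections carry clock hours 4 and 16. In LH both carry clock hour 16, so the LH times rest on the collection number. The study's read summary gives other names to many HL and LH libraries, so these comparisons hold for the titles only. HL differed from HH for 8 genes (0.0695%) and LH for 0 (400 genes, or 3.48%, at an unadjusted 0.05, edgeR). Nr1d1 averaged 23.2 ± 12.7 CPM at 8 h (SD, n = 3) and 75.7 ± 33.2 CPM at 20 h (SD, n = 4) in HL, opposite in sign to HH. The change within HL was not called (adjusted p = 0.403), and the difference of the log2 changes, HH minus HL, was -5.43 (standard error 0.84, adjusted p = 0.000395). The fitted changes of Dbp and Nfil3 also had opposite signs in HH and HL (differences of -4.66 and 2.81, adjusted p = 0.0218 for each). Within HL neither gene was called (adjusted p = 0.120 and 0.329), and Nfil3 was not called in HH either. In LH, Nr1d1 averaged 76.9 ± 50.2 and 14.3 ± 14.8 CPM (SD, n = 4 in both). Its log2 change was -3.72 in HH and -2.44 in LH, where it was not called (adjusted p = 0.0935). The difference, HH minus LH, was -1.28 with a standard error of 0.78 (adjusted p = 0.9999). The mitotic list had a median of -0.53 in HL (10 lower, 0 higher at an unadjusted 0.05, or 12.0% lower against 4.01% of all genes) and of -0.99 in LH (54 lower, 0 higher, or 65.1% lower against 3.01%), in libraries that share none with HH.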

How the data were processed

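RNA of PER2::LUC sv fibroblasts was sequenced by 3′DGE, and the authors deposited raw read counts per gene, 121 sets that are the sequencing runs of 62 libraries. The submitters' processing notes name bcl2fastq, STAR 2.6.0a, HTSeq 0.9.1 and mm10, and the sources used here give neither annotation release nor strand setting. Of 31053 gene identifiers 31011 matched GENCODE M21 (GRCm38), used for symbols and positions. Reads on no feature (20.0% to 25.7% of a run's reads on genes, on no feature or ambiguous, in the 7 libraries) and ambiguous reads (0.372% to 0.414%) were left out. Chi-square over degrees of freedom was 1.33 to 1.64 between the runs of an HH library and 4.79 to 83.2 between libraries of one collection, so runs were summed and each library was 1 replicate.

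Genes with at least 1 CPM in 3 of the 7 libraries were tested with edgeR 4.0.16 (quasi-likelihood, TMM, R 4.3.3) in a model of all 19 HH libraries with collection as a factor, which has 13 residual degrees of freedom, and Benjamini-Hochberg adjustment over all genes at 0.05. Differences between pairs of collections used contrasts of this model, and HL and LH a model of all 62 libraries. Alternatives were other scalings, filters and samples, the replicate number as a block, single runs, thinning to 3687321 counts, DESeq2 1.42.0, limma 3.58.1 and leaving out each library. No interval was computed for single libraries, and depths cover counting error only. The test was first run on simulated counts.

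The groups, members and the 33 gene lists were chosen with earlier results of these data known. Genes named are all measured core clock genes, the called genes, those the study names, list members past an unadjusted 0.05, and the 5 genes most like Nr1d1 and Cry1. Timp1, Vegfb and Medag are named from the tests of differences between pairs of collections or treatments, and Ifi44 and Usp18 from an alternative. These 5, the list members that were not called, and Thra and Malat1 were picked after their values were seen. Of 40 genes named by rule 34 had a promoter window in RefSeq (GRCm38.p6).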

Additional observations from a re-analysis of the deposited data

Results flagged for a closer look

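Among the 4 libraries of 20 h, 40 named genes were searched for a library far from the others (Dixon's criterion, 0.829 for 4 values), which chance meets in about 1 of 20 genes. It was met by Nusap1, where replicate 1 was at 9.57 CPM and the other 20 h libraries at 6.60 to 6.88 CPM, and by Rora, where replicate 4 was at 390 CPM and the others at 139 to 169 CPM.

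A change from 8 h to 20 h that differed from that of another pair of HH collections was found for 8 genes (edgeR, adjusted p under 0.05). Against 4 h and 16 h the log2 differences were -3.13 for Nr1d1, -2.18 for Nr1d2, -1.95 for Tef, -2.85 for Bhlhe41, 3.76 for Arntl and -4.52 for Dbp. Against 0 h and 12 h they were 1.69 for Timp1, -6.70 for Nr1d1, -3.69 for Nr1d2, -2.42 for Tef, -3.28 for Per3, -3.49 for Bhlhe41 and -5.16 for Dbp. Of these, Arntl was called in 5 of 11 alternative settings and Timp1 and Per3 in 9 of 11, and the other calls held in all 11.

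Between HH and HL, by titles, the changes differed by 1.60 for Timp1, -5.43 for Nr1d1, -0.95 for Vegfb, -1.86 for Pde8a, 0.94 for Medag, -2.87 for Bhlhe41, 2.81 for Nfil3 and -4.66 for Dbp. Nr1d1 held in all 9 alternative settings, and the others in 3 to 8 of them. Timp1, an inhibitor of metalloproteinases, fell in HL from 304 ± 94.1 CPM (SD, n = 3) to 109.9 ± 8.95 CPM (SD, n = 4), and in HH it was at 132 ± 8.96 and 144 ± 41.5 CPM (SD, n = 3 and n = 4).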

How the results depend on the processing

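The 9 genes called between 8 h and 20 h became 1 with the 7 libraries alone, 3 in the model of all 62 libraries, 24 without TMM scaling, 21 without a filter, 71 in DESeq2 and 3 in the second sequencing run alone, and 4 with sample quality weights, a setting chosen after seeing the data. Leaving out 1 library gave 1 to 78 calls, with the lowest counts without 8 h replicate 1 or 3 and the highest without 20 h replicate 4. The change over all 6 collections kept to 49 to 64 calls from 52, except with the replicate block (113). The difference from the 4 h and 16 h pair gave 16 calls in DESeq2 in place of 6, and 5 to 8 without single libraries. The difference from the 0 h and 12 h pair, whose alternatives were chosen after seeing the data, gave 34 in DESeq2 in place of 7, and 5 to 48 without single libraries. The difference from HL gave 1 to 114 calls without single libraries in place of 8, highest without 20 h replicate 4, and that from LH gave 0 in each. The cause of these moves was not tested.

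Replicate numbers are shared by the groups, but the deviations of same-numbered 8 h and 20 h libraries correlated by 0.0836, 0.106 and 0.226 for replicates 1, 3 and 4, not all over 0.1, so the numbers were not taken as pairs, although each 8 h library correlated best with its own number. With the replicate block 36 genes were called in all HH libraries and 4 with the 7 libraries (Nr1d1 and the interferon-induced Isg15, Ifi44 and Usp18, which were not called without the block), and 11 for the difference from the 0 h and 12 h pair.

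Of the named genes, the sign turned for Rora and Per2 without 20 h replicate 4 and for Per2 in limma-voom (-0.40). Without single libraries the log2 fold change was -0.036 to 0.62 for Rora and -0.29 to 1.03 for Per2. None of these was called. Genes of a few CPM, such as Per2, Ciart and Bub1b, rest on few counts at this depth.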
